A study of Mus musculus with 8 samples.

Results

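The formative and primed epiblast factors are 6 transcription factor genes of the post-implantation epiblast, chosen by name from what is known of that tissue: Otx2, Pou3f1, Foxd3, Zic2, Zic5 and Foxp1. They are 6 of the 46078 Ensembl gene IDs counted in 8 mouse RNA-seq libraries, and all 6 were measured in each library. The libraries formed 4 groups of 2, all from XY cells of C57BL/6 strain, and the design text calls them biological duplicates. tcESCs are embryonic stem cells (ESCs) derived from male embryos that carry a tesco-cfp transgene, and they were kept in N2B27 2iLIF medium, in which LIF and the inhibitors PD0325901 and CHIR99021 hold ESCs in the naive state. tc;Sf1ESCs are a subline of tcESCs that also carries the plasmid pCDNA3-Sf1, which expresses Nr5a1 (Sf1). The paper describes it as a line found among several made from picked, G418-resistant colonies. Nr5a1 expression, the G418 selection and traits of the subline cannot be told apart wherever tc;Sf1ESCs or SCLCs are compared with tcESCs. Sertoli cell-like cells (SCLCs) are CFP-positive cells sorted at day 12 of differentiation of tc;Sf1ESCs. tod-PGCLCs are primordial germ cell-like cells sorted at day 6 from testicular organoids, in which epiblast-like cells (EpiLCs) had been mixed with cells differentiated from tc;Sf1ESCs. The EpiLCs came from another ESC line, XY;Prdm1-gfp, so the line and the cell type cannot be told apart wherever tod-PGCLCs are compared. The tod-PGCLCs were sorted on GFP of the Prdm1-gfp reporter. The methods name the second marker of this sort as CD49f in one place and SSEA1 in another. No EpiLC library was analysed here.

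As pluripotent cells leave the naive state they pass through a formative state and become primed epiblast, and the transcription factor network of the cell is rewired on the way. Otx2, a homeodomain protein, and Pou3f1, a POU protein also called Oct6, are known for directing Pou5f1 to new enhancers during this exit, and loss of Otx2 is known to favour germ cell fate in EpiLCs. Foxd3 is a forkhead repressor of naive enhancers that ESCs also need, Zic2 and Zic5 are zinc finger proteins of the epiblast and the neural plate, and Foxp1 is a forkhead protein with a splice form particular to ESCs, which gene counts cannot show.

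Each library held between 25411033 and 30680191 counts on genes. Counts were scaled to these totals as CPM, on which scale 3 counts, taken as the smallest measurable level, were 0.0978 to 0.118. That floor covers counting error alone, because PCR copies of a molecule were counted as separate reads. The core pluripotency genes Pou5f1, Sox2, Sall4 and Nanog summed to 2155 to 2473 CPM in the 4 ESC libraries and to 2027 and 2062 CPM in tod-PGCLCs, but to 585 and 396 CPM in SCLC replicates 1 and 2. Gata4, Sox9, Vnn1 and Nr5a1 were called higher in SCLCs than in either ESC line. Nr5a1 is the gene on the plasmid, and the CFP used for the sort is driven by a Sox9 enhancer. Neither Nr5a1 nor Sox9 therefore checks the label independently. The Sertoli markers Amh (10 and 22 counts) and Dhh (5 and 1 counts) were no higher than in the ESCs (15 to 24 and 5 to 24 counts). The 14 visceral endoderm markers summed to 2776 and 4747 CPM in SCLCs against 24.3 to 30.9 CPM in the ESCs, so the label was met by only part of its markers. In tod-PGCLCs the germ cell genes Tfap2c, Dppa3, Dnd1 and Ddx4 were called higher than in either ESC line. So was Prdm1, but its reporter was used for the sort, so it does not check the label. Kit was called against neither line and Dazl only against tc;Sf1ESCs, where it was higher. Nanos3 had 60 and 109 counts, where tcESCs had 49 and 61 and tc;Sf1ESCs 236 and 251. These are bulk libraries, in which fewer cells of a type and less RNA per cell cannot be told apart.

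Levels of different genes are set side by side as normalized CPM per kb of merged exons. On this scale Foxd3 was the highest of the 6 factors in tcESCs (20.1 ± 0.0145, SD, n = 2), followed by Zic2 (18.0 ± 0.399) and Zic5 (6.35 ± 0.0933). Pou3f1 (1.45 ± 0.0184), Foxp1 (0.899 ± 0.0953) and Otx2 (0.682 ± 0.0394) were the lowest there. In tod-PGCLCs Zic2 led with 25.2 ± 0.594, and Otx2 stood next with 16.2 ± 2.10, above Zic5 (8.83 ± 0.532), Pou3f1 (6.93 ± 0.188), Foxd3 (4.86 ± 1.41) and Foxp1 (2.37 ± 0.154). The factors thus split in the naive ESCs into 3 that were well expressed and 3 that were low, and the order differed in tod-PGCLCs.

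**Figure D1:**
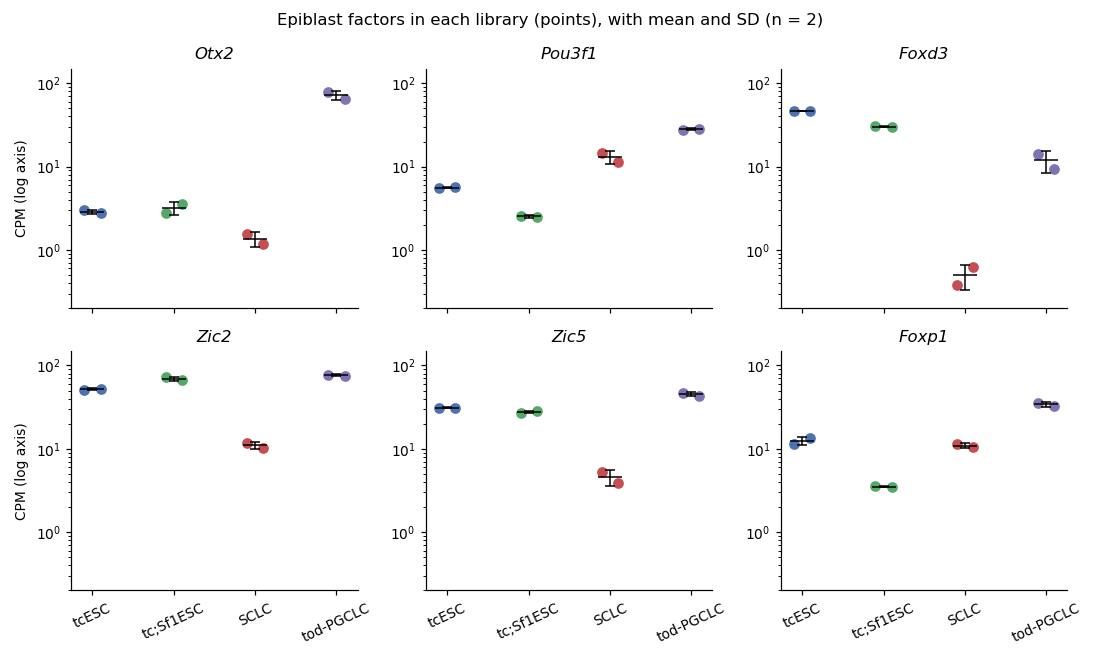
CPM of each of the 6 factors (vertical log axis) in each library of the 4 groups (horizontal axis); points are libraries, bars the mean and SD of n = 2. Otx2 stands at 65.3 and 78.4 CPM in tod-PGCLCs and under 4 CPM elsewhere, Foxd3, Zic2 and Zic5 are lowest in SCLCs, and Pou3f1 and Foxp1 are lowest in tc;Sf1ESCs.

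A gene was called where its fold change was above 2 and its adjusted p, by edgeR's quasi-likelihood test across all genes, was under 0.05. Between the ESC lines, 2 of the 6 factors, Pou3f1 and Foxp1, were called lower in tc;Sf1ESCs, and the other 4 stayed within 2-fold, where 11.7% of the 16481 genes tested were called and 5.62% were called lower. The median log2 fold change of the 6 was −0.38, beside 0.00096 over all genes.

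In SCLCs against tcESCs 5 of the 6 factors were called, Pou3f1 higher and Otx2, Foxd3, Zic2 and Zic5 lower, where 42.7% of genes were called and 18.3% were called lower. The median was −1.59, beside 0.0461 over all genes. Against tc;Sf1ESCs, the cells they were made from, all 6 were called, Pou3f1 and Foxp1 higher and the same 4 lower, where 42.2% of genes were called. The median was −1.86, beside 0.0163. Both comparisons use the same SCLC libraries.

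In tod-PGCLCs against tcESCs 4 of the 6 factors were called, Otx2, Pou3f1 and Foxp1 higher and Foxd3 lower. Of the 16707 genes tested 29.4% were called, 18.1% higher and 11.2% lower. Against tc;Sf1ESCs the same 4 factors were called in those directions, where 32.7% of genes were called, 19.4% higher and 13.3% lower. The medians of the 6 were 0.94 and 1.91, beside 0.0340 and 0.0118 over all genes. Against SCLCs 5 of the 6 were called, each of them higher in tod-PGCLCs, where 38.0% of genes were called and 18.5% were called higher. Their median was 2.91, beside 0.0125 over all genes. The 3 comparisons share the tod-PGCLC libraries.

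Otx2 (ENSMUSG00000021848, GRCm38 chromosome 14, 48657677 to 48673819, minus strand) had 76 and 85 counts in tcESCs, 72 and 99 in tc;Sf1ESCs, 41 and 34 in SCLCs, and 2159 and 1735 in tod-PGCLCs. In CPM these are 2.99 and 2.77, 2.78 and 3.58, 1.55 and 1.17, and 78.4 and 65.3. The tod-PGCLC libraries stood far above all others, the SCLC libraries below all others, and the ESC lines overlapped. The level in tod-PGCLCs was 23.7-fold that of tcESCs (log2 fold change 4.57, SE 0.175, adjusted p = 3.58e-07) and 48.3-fold that of SCLCs (adjusted p = 9.93e-08). The step down to SCLCs was 2.03-fold from tcESCs (log2 fold change −1.02, SE 0.256, adjusted p = 0.00864) and 2.27-fold from tc;Sf1ESCs (adjusted p = 0.0043), just past the 2-fold limit of a call. Without SCLC replicate 2 the log2 difference was −0.83 from tcESCs and −0.996 from tc;Sf1ESCs, without tcESC replicate 1 it was −0.97 from tcESCs (adjusted p = 0.0525), and without tc;Sf1ESC replicate 2 it was −0.99 from tc;Sf1ESCs, so that each of these calls was lost.

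Pou3f1 (ENSMUSG00000090125, chromosome 4, 124656807 to 124660655, plus strand) had 5.51 and 5.64 CPM in tcESCs, 2.58 and 2.46 in tc;Sf1ESCs, 14.8 and 11.3 in SCLCs, and 27.5 and 28.6 in tod-PGCLCs. No pair of groups overlapped. Pou3f1 was the only one of the 6 factors that was called lower in tc;Sf1ESCs than in tcESCs (2.19-fold, adjusted p = 0.00452) and higher in SCLCs than in tcESCs (2.44-fold, adjusted p = 0.000388). In tod-PGCLCs it was 4.78-fold above tcESCs (adjusted p = 5.39e-06) and 10.5-fold above tc;Sf1ESCs (adjusted p = 8.86e-07). The step from SCLCs to tod-PGCLCs was 1.96-fold (log2 fold change 0.97, SE 0.143, adjusted p = 0.000298), under the fold limit, so the 2 groups differed beyond their spread without a call.

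Foxd3 (ENSMUSG00000067261, chromosome 4, 99656299 to 99658622, plus strand) had 1182 and 1436 counts in tcESCs, 798 and 823 in tc;Sf1ESCs, 10 and 18 in SCLCs, and 394 and 251 in tod-PGCLCs. In CPM the groups stood at 46.5 and 46.8, 30.8 and 29.7, 0.377 and 0.619, and 14.3 and 9.45, and none of them overlapped. Its loss in SCLCs was the largest decrease of the 6 factors, 88.0-fold from tcESCs (log2 fold change −6.46, SE 0.165, adjusted p = 2.14e-07) and 57.6-fold from tc;Sf1ESCs (adjusted p = 3.42e-07). Foxd3 was also the one factor that was called lower in tod-PGCLCs than in the ESCs, by 4.13-fold from tcESCs (adjusted p = 2.30e-05) and 2.70-fold from tc;Sf1ESCs (adjusted p = 0.000142). It was still 21.4-fold above its level in SCLCs there (adjusted p = 1.93e-06). The 1.53-fold step from tcESCs to tc;Sf1ESCs passed the p limit only (adjusted p = 0.00482).

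Zic2 (ENSMUSG00000061524, chromosome 14, 122475435 to 122479852, plus strand) had 50.8 and 52.7 CPM in tcESCs, 72.1 and 67.0 in tc;Sf1ESCs, 11.9 and 10.2 in SCLCs, and 77.5 and 75.1 in tod-PGCLCs. The SCLC libraries were the low ones, 4.48-fold under tcESCs (adjusted p = 1.73e-06) and 6.07-fold under tc;Sf1ESCs (adjusted p = 8.58e-07). tod-PGCLCs and tc;Sf1ESCs differed by 1.03-fold (log2 fold change 0.05, SE 0.0825, adjusted p = 0.645), which is within the error. Both were above tcESCs, by 1.40-fold (adjusted p = 0.000967) and 1.35-fold (adjusted p = 0.00891), under the fold limit.

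Zic5 (ENSMUSG00000041703, chromosome 14, 122456795 to 122465677, minus strand) had 31.3 and 30.8 CPM in tcESCs, 27.1 and 28.2 in tc;Sf1ESCs, 5.32 and 3.88 in SCLCs, and 47.3 and 43.5 in tod-PGCLCs. It fell in SCLCs as its neighbour Zic2 did, 6.47-fold from tcESCs (adjusted p = 4.57e-06) and 5.81-fold from tc;Sf1ESCs (adjusted p = 6.09e-06). The ESC lines did not overlap, yet their 1.11-fold difference did not pass the p limit (adjusted p = 0.409). tod-PGCLCs were 1.39-fold above tcESCs (adjusted p = 0.00777) and 1.55-fold above tc;Sf1ESCs (adjusted p = 0.00165), again under the fold limit.

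Foxp1 (ENSMUSG00000030067, chromosome 6, 98925338 to 99522721, minus strand) had 11.4 and 13.3 CPM in tcESCs, 3.59 and 3.47 in tc;Sf1ESCs, 11.5 and 10.4 in SCLCs, and 35.8 and 32.7 in tod-PGCLCs. It was 3.48-fold lower in tc;Sf1ESCs than in their parent line (adjusted p = 0.000368). SCLCs overlapped with tcESCs (1.09-fold, adjusted p = 0.478) and stood 3.20-fold above the tc;Sf1ESCs they were made from (adjusted p = 5.35e-05). tod-PGCLCs were highest, 2.63-fold above tcESCs (adjusted p = 2.43e-05) and 9.12-fold above tc;Sf1ESCs (adjusted p = 5.42e-07). Over 776 chromosome 6 genes the median log2 fold change was −0.31 in tc;Sf1ESCs, −0.30 in SCLCs and, over 778 genes, −0.29 in tod-PGCLCs, each against tcESCs, and the part of this shift in the Foxp1 differences was not tested.

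**Figure D2:**
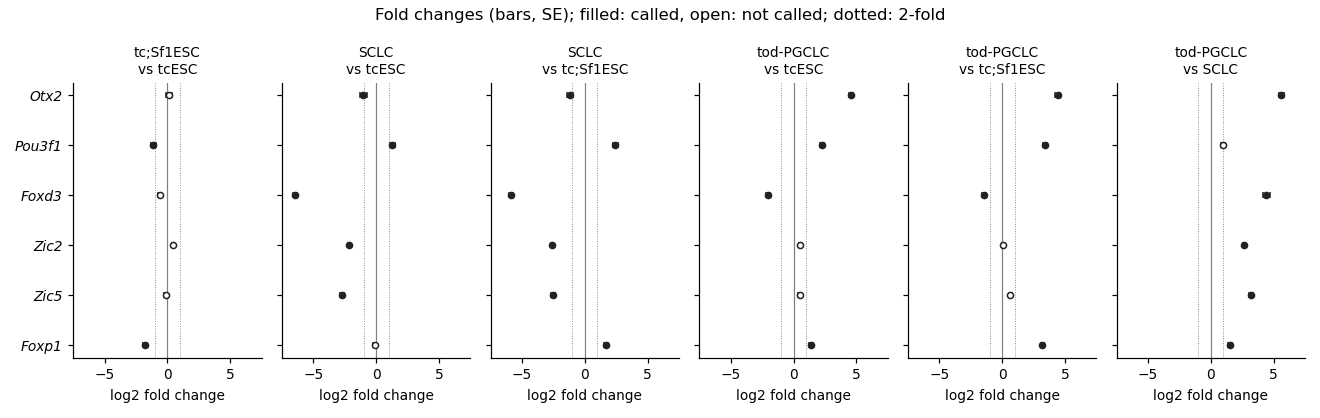
Log2 fold changes of the 6 factors (horizontal axis; the first group named over the second) in the 6 comparisons, with bars for the SE, which are mostly narrower than the symbols; filled symbols were called and open ones were not. Otx2 reaches 4.57 and 5.59 in tod-PGCLCs against tcESCs and SCLCs, and Foxd3 is at −6.46 in SCLCs against tcESCs.

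Relative to the mean of the tc;Sf1ESCs they came from, SCLC replicates 1 and 2 kept 1.28% and 2.12% of the Foxd3 level, 17.6% and 15.2% of Zic2, 19.8% and 14.5% of Zic5, and 50.1% and 38.0% of Otx2. The core pluripotency genes kept 24.5% and 16.1% of Pou5f1, 17.1% and 5.96% of Sox2 and 10.3% and 3.17% of Nanog. Foxd3 was at a smaller share than Nanog in both libraries. It rested on 10 and 18 counts and was higher in replicate 2, while Nanog, Sox2 and Pou5f1 were higher in replicate 1. Sall4 kept 84.7% and 75.7%. The part of remaining pluripotent cells in the SCLC levels was not tested. In tod-PGCLCs replicates 1 and 2, the corresponding values were 44.5% and 29.4% for Foxd3, 105% and 102% for Zic2, and 87.8% and 87.2% for Nanog.

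**Figure D3:**
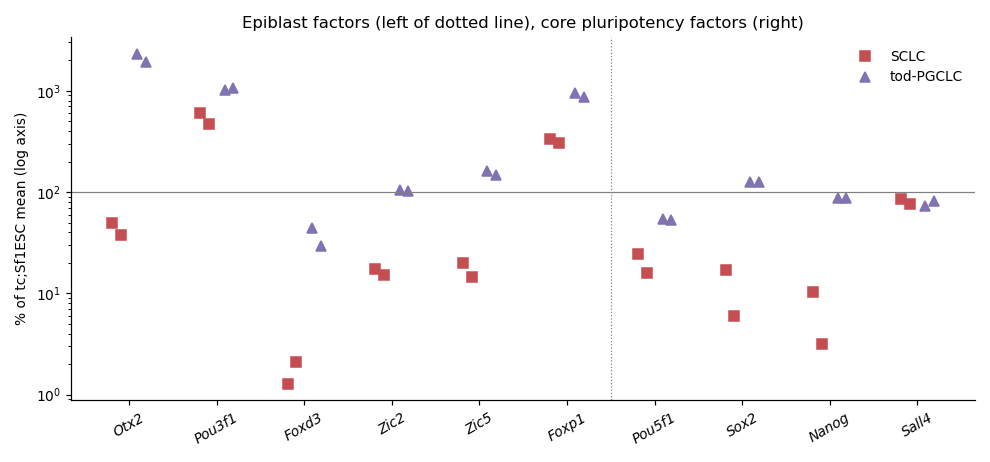
Normalized CPM in each SCLC (squares) and tod-PGCLC (triangles) library as a percentage of the tc;Sf1ESC mean (vertical log axis) for the 6 factors and the core pluripotency genes. Foxd3 at 1.28% and 2.12% is the lowest value in SCLCs, and Otx2 at 2323% and 1932% the highest in tod-PGCLCs.

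Other genes of the Otx, Pou3f, Foxd, Zic and Foxp families were read beside the 6 factors. Zic1, known from neural and mesodermal tissue, had 0 to 3 counts in each ESC library, 67 and 67 in SCLCs and 24 and 19 in tod-PGCLCs, and was called higher in both. Zic1 thus rose in SCLCs, where Zic2 and Zic5 fell.

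Otx1, the closest relative of Otx2 in the list, had 80 to 152 counts in the ESCs and 47 and 40 in tod-PGCLCs, 2.81-fold under tcESCs (adjusted p = 0.000855), where Otx2 was 23.7-fold above them, and it was not called against tc;Sf1ESCs (1.97-fold lower). Pou3f2, a neural POU factor, had 30 to 61 counts in the ESCs, 1 and 2 in SCLCs and 12 and 7 in tod-PGCLCs. It was called lower than tcESCs in SCLCs and in tod-PGCLCs, while Pou3f1 was called higher in both. Foxd1 was 3.89-fold lower in SCLCs (adjusted p = 0.000532) and 3.75-fold lower in tod-PGCLCs (adjusted p = 0.000635) than in tcESCs, and Foxd2 was 5.59-fold higher in SCLCs (adjusted p = 0.0017). Foxp4, per kb the most abundant Foxp gene with 28.1 ± 0.0660 normalized CPM per kb in tcESCs and 13.1 ± 1.18 in tod-PGCLCs, was 2.15-fold lower in tod-PGCLCs than in tcESCs (adjusted p = 6.85e-06), where Foxp1 rose, and was not called against tc;Sf1ESCs (1.85-fold lower). Crx, Pou3f4, Foxd4 and Zic4 were under the count filter.

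Genes whose starts lie within 100 kb were listed to see what else was counted at these loci. Zic2 and Zic5 lie head to head, with 9758 bases between their starts. Between them, 236 bases from the start of Zic2 and on the opposite strand, starts the processed transcript 2610035F20Rik, which had 106 to 177 counts in the ESCs, 24 and 27 in SCLCs and 118 and 92 in tod-PGCLCs. It was called lower in SCLCs than in tcESCs (log2 fold change −2.37, adjusted p = 9.70e-05). Pcca, 58.9 kb from the start of Zic2, had 527 to 836 counts and was called in no comparison.

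At the Foxd3 locus the lincRNA Gm12688 starts 1316 bases away on the opposite strand, and its 154 to 198 counts in the ESCs went to 7 and 9 in SCLCs and to 64 and 62 in tod-PGCLCs. It was called lower than tcESCs in SCLCs (log2 fold change −4.36, adjusted p = 4.64e-06) and in tod-PGCLCs (log2 fold change −1.50, adjusted p = 0.000149), the comparisons with tcESCs in which Foxd3 was called lower. Gm12690, a lincRNA 86.8 kb from Foxd3, took another course, with 6 and 13 counts in tcESCs, 185 and 169 in tc;Sf1ESCs, 20 and 9 in SCLCs and 166 and 147 in tod-PGCLCs. Alg6, 59.4 kb from Foxd3, was called in no comparison, although its 866 and 949 counts in SCLCs were its lowest (log2 fold change −0.43 from tcESCs, adjusted p = 0.00147). The strand setting of the counting is not given in the sources used here, so reads of a gene and of a transcript that overlaps it on the other strand may not have been separated. No annotated gene body overlaps those of Zic2 or Foxd3 among the neighbours named above. Otx2 is overlapped on the other strand by the lincRNA Otx2os1. It had 12 and 21 counts in tcESCs, 1 and 1 in tc;Sf1ESCs, 3 and 0 in SCLCs and 17 and 17 in tod-PGCLCs. Pou3f1 is overlapped on the other strand by Gm2164, with 0 to 2 counts per library.

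**Figure D4:**
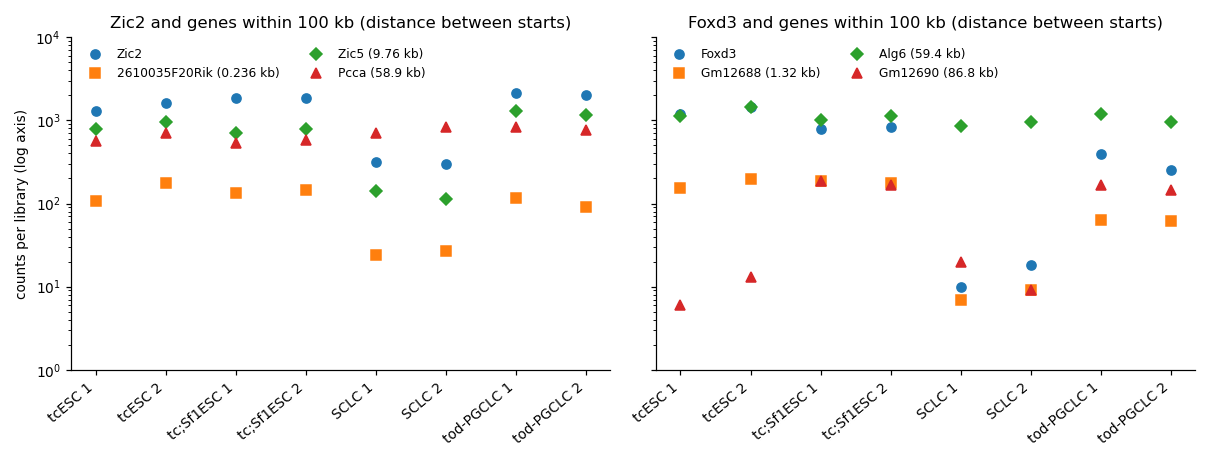
Counts per library (vertical log axis) of Zic2 and of Foxd3 with the genes above a mean of 10 counts within 100 kb, with the distance between starts in the key. 2610035F20Rik and Zic5 are lowest in the SCLC libraries like Zic2, and Gm12688 is lowest there like Foxd3. Pcca and Alg6 stay within 2-fold in every comparison.

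A promoter was listed in RefSeq for 4 of the 6 factors (GRCm38.p6), and those of Otx2 and Foxd3 are shown because these genes had the largest changes. Each is the 250 bases before the most upstream RefSeq start listed, 5′ to 3′ on the strand of the gene, for Otx2 chr14:48667645-48667894 (minus strand) and for Foxd3 chr4:99656049-99656298 (plus strand). The Otx2 window lies inside the gene as GENCODE M21 draws it, which reaches farther upstream. Capitals mark a TAATTA homeodomain core in Otx2, and a TGACGTCA cyclic AMP response element and a CACGTG E-box in Foxd3.
Otx2: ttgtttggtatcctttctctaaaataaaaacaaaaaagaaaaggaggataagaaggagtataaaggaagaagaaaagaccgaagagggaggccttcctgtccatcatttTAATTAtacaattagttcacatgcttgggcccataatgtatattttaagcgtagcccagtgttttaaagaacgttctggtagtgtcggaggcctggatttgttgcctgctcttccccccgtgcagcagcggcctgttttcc
Foxd3: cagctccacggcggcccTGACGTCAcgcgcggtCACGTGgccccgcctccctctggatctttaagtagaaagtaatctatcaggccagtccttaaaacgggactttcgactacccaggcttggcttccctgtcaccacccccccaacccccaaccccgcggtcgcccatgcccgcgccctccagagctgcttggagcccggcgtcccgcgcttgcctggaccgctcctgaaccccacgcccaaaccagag
The OTX site TAATCC, the POU octamer ATGCAAAT, the forkhead motif TGTTTAC, the ZIC motif CCTGCTG and the SOX motif ACAATGG were searched first, on both strands, and none was in the 250 bases of Otx2, Foxd3, Zic5 or Foxp1. The 3 marked motifs were added after these sequences were seen. TAATTA was in 4.91% of 27025 promoter windows of the same length, TGACGTCA in 1.60% and CACGTG in 6.04%. The sites searched first were in 6.37%, 1.62%, 3.06%, 8.33% and 3.04% of the windows, in the order given.

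Of 16 other genes of the epiblast programme, 6 were called higher and 2 lower in tod-PGCLCs than in tcESCs, beside 18.1% and 11.2% of all genes. Their median log2 fold change was 0.72, beside 0.0340 over all genes. Fgf5, the classic marker of primed epiblast, had 15 to 23 counts in the ESCs, 4 and 9 in SCLCs and 224 and 381 in tod-PGCLCs, 15.6-fold above tcESCs (adjusted p = 3.53e-05). Grhl2, a pioneer factor of epithelial enhancers in the formative state, had 52 and 58 counts in tcESCs and 1123 and 973 in tod-PGCLCs, an 18.7-fold rise (adjusted p = 6.93e-07). These genes were raised beside Otx2, while Nodal (2.24-fold, adjusted p = 0.00171) and its co-receptor gene Tdgf1 (2.38-fold, adjusted p = 0.0131) were lower. Against tc;Sf1ESCs 7 of the 16 were called higher, beside 19.4% of all genes. There Nodal (1.76-fold lower, adjusted p = 0.01) and Tdgf1 (1.73-fold lower, adjusted p = 0.0746) were not called. The 6 called higher than in tcESCs were Fgf5, Grhl2, Lef1, Dnmt3a, Tcf15 and Sall2.

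In SCLCs against tcESCs 10 of the 16 were called lower and 4 higher, beside 18.3% and 24.3% of all genes, with a median of −1.61. Tdgf1 (31.7-fold, adjusted p = 2.12e-05) and Nodal (22.6-fold, adjusted p = 1.00e-05) fell most, and the 4 called higher were Grhl2, Sall2, Dnmt3a and Lef1. Lef1, a mediator of Wnt signals, had 41 and 56 counts in tcESCs, 912 and 934 in tc;Sf1ESCs, 138 and 77 in SCLCs and 1719 and 1293 in tod-PGCLCs. Its 20.1-fold step between the ESC lines (adjusted p = 0.000163) went the other way from those of Pou3f1 and Foxp1. Sox3, a SOX factor of the epiblast and the neural plate, went the same way as they did, 3.96-fold lower in tc;Sf1ESCs (adjusted p = 0.000609). In that comparison 3 of the 16 were called higher and 3 lower, beside 6.04% and 5.62% of all genes.

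The naive pluripotency list was read beside them. Of its 13 genes, 4 were called lower and 2 higher in tod-PGCLCs than in tcESCs, beside 11.2% and 18.1% of all genes. Their median was −0.63. Tbx3 (log2 fold change −3.38, adjusted p = 3.47e-07) and Klf4 (−3.00, adjusted p = 6.22e-08) fell most, while Nanog, Zfp42 and Prdm14 were not called. Against tc;Sf1ESCs 4 were called lower and 1 higher, beside 13.3% and 19.4% of all genes. In SCLCs against tcESCs 10 of the 13 were called lower, beside 18.3% of all genes, with a median of −3.05.

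Of 8 primitive streak genes tested, 3 were called higher and 2 lower in tod-PGCLCs than in tcESCs, beside 18.1% and 11.2% of all genes. T, a mesoderm factor, had 37 and 47 counts in tcESCs, 227 and 286 in tc;Sf1ESCs and 286 and 716 in tod-PGCLCs, and was not called against tc;Sf1ESCs (log2 fold change 0.88, adjusted p = 0.071). Lhx1, a factor of anterior mesendoderm, had 0 to 2 counts in each ESC library and 135 and 447 in tod-PGCLCs. Both varied more between the tod-PGCLC replicates than Otx2 did (2159 and 1735 counts). Cer1, a secreted Nodal antagonist known as a target of Otx2, was at 0 in each ESC library and had 73 and 337 counts in tod-PGCLCs.

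**Figure D5:**
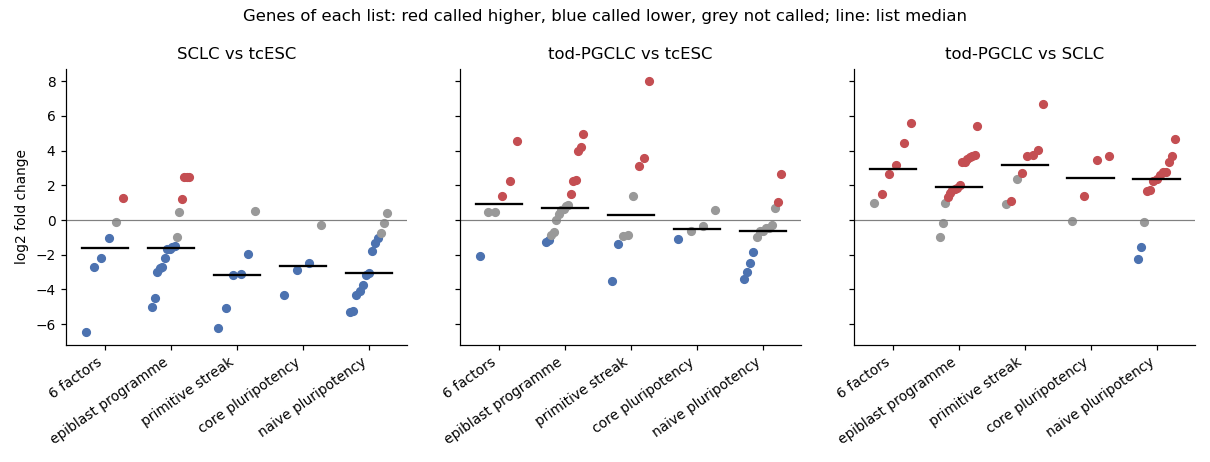
Log2 fold changes (vertical axis) of the 6 factors and of the epiblast, primitive streak, core and naive pluripotency lists in 3 comparisons; each point is a gene, red if called higher, blue if called lower and grey if not called, and lines are list medians. The median of the 6 factors is −1.59 in SCLCs and 0.94 in tod-PGCLCs against tcESCs, and that of the naive genes −3.05 and −0.63.

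Otx2 and the other factors are also expressed in tissues other than the epiblast, so markers of those tissues were read in the same libraries. Otx2 is known from visceral endoderm. Against tcESCs 12 of 13 such genes were called higher in SCLCs, beside 24.3% of all genes, where Otx2 was called lower. In tod-PGCLCs 9 of 14 were called higher than in tcESCs, beside 18.1% of all genes. The 14 summed to 58.7 and 81.7 CPM, beside 24.3 to 30.9 CPM in the ESCs. Foxa2 (75 and 190 counts, 13.7-fold), Cubn (170 and 194 counts, 12.7-fold), Gata6 (143 and 151 counts, 9.64-fold) and Afp (68 and 35 counts, 16.3-fold) were among those called. Ttr, at 0 in each ESC library, had 15 and 15 counts and was not called, and neither was Hnf4a (73 and 46 counts, beside 86 and 82 in tcESCs). Between the tod-PGCLC replicates, Foxa2, Sox17 and Cer1 were higher in replicate 2, while Afp, Apob and Hnf4a were higher in replicate 1, as Otx2 was.

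Of 8 anterior neural genes tested, Pax6 was the one called higher in tod-PGCLCs than in tcESCs (10 and 11 counts in tcESCs, 210 and 160 in tod-PGCLCs), while Hesx1 and Lhx2 were called lower. Beside these and the other list counts of this paragraph against tcESCs, 18.1% of all genes were called higher and 11.2% lower. Against tc;Sf1ESCs Pax6 was again called higher, and Nes and Lhx2 lower. Rax was under the count filter, and Sox1 had 58 and 96 counts in tod-PGCLCs against 140 and 141 in tcESCs. Foxd3 is also a neural crest gene in the embryo, and of 5 other neural crest genes tested 2 were called higher in tod-PGCLCs than in tcESCs (Ets1 and Pax3) and 1 lower (Tfap2a). Sox10 and Tfap2b were under the count filter. Of 9 Sertoli genes tested, 4 were called higher in tod-PGCLCs than in tcESCs, Wt1 (332 and 293 counts) and Sox9 (68 and 132 counts) among them. The part of other cells in the tod-PGCLC levels of the 6 factors was not tested.

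The genes whose pattern over the 8 libraries was most like that of each factor were found by Pearson's r of log2 CPM among 14250 genes. These r describe 8 libraries in 4 groups that also share the depth and the group differences of all other genes, and no test was made. For Otx2, Homer1 (r = 0.995) and the pseudogene Gm15920 were among them. Homer1, a scaffold protein of synapses, had 32.0 to 34.5 CPM in the ESCs, 29.96 and 28.19 in SCLCs and 59.5 and 57.8 in tod-PGCLCs. For Pou3f1 they were Tmem106c, Igf1r and Pla2g6, for Foxd3 Accsl (r = 0.999), Ywhag and Ly75, and for Zic2 Kat2a, Vrk1 and Mcm3. For Zic5 they were Rims2 (r = 0.999), Cbx1 and Ccdc92, and for Foxp1 Sh3bgrl (r = 0.995), Sema4d and Cdk5rap3. Among the factors themselves, the most alike were Zic2 and Zic5 (r = 0.978) and Pou3f1 and Foxp1 (r = 0.920), and the least alike Pou3f1 and Foxd3 (r = −0.53).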

How the data were processed

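RNA was sequenced from 8 libraries, 2 each of tcESCs, tc;Sf1ESCs, SCLCs and tod-PGCLCs. Per the study's methods, poly-A RNA was turned into strand-specific, random-primed libraries and read in pairs on a HiSeq4000. The submitters' processing notes name Trim Galore, STAR 2.4.0, Picard, HTSeq and DESeq2 with GRCm38. The annotation release and the strand setting of the counting are not given in the sources used here. The authors deposited raw counts per gene for each library, without normalization. Of the reads counted per library, 35.6% to 41.6% were on no gene row (2.97% to 3.15% as ambiguous) and were left out. Of 46078 Ensembl IDs, 45229 were named with GENCODE M21.

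Counts were analysed with R 4.3.3 and edgeR 4.0.16 (limma 3.58.1). Genes with a mean count above 10 were kept, 16481 over the 6 libraries without tod-PGCLCs and 16707 over all 8 libraries, which were used for tod-PGCLCs. After TMM normalization, edgeR's quasi-likelihood test was run with Benjamini-Hochberg adjustment over all genes tested, and every adjusted p in the text is from it. A gene was called at a fold change above 2 and an adjusted p under 0.05, the limits of the study's methods. The code was tested on simulated data. CPM are scaled to library totals, and levels per kb also use TMM factors. With 2 libraries per group, the SD measures the spread between duplicates. The p-values rest on a spread estimated over all libraries of a fit and moderated across genes, so they do not measure that of the compared groups alone.

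The genes named are the 6 factors, members of their families, from each list per comparison up to 2 called genes with the largest rise and 2 with the largest fall, at a mean of at least 1 CPM and with no overlap between groups, the 3 genes most like each factor over 8 libraries (log2 CPM, prior count 2), and neighbours within 100 kb. Markers that check a label, and in lists Tcf15, Zfp42, Prdm14, Ttr, Foxa2, Sox17, Apob, Rax, Pax3, Sox10 and Tfap2b, were named beside these after their values were seen. Some genes that this rule selects are not reported here. The factors and all lists were chosen with earlier results of these data known. Alternative fits used library totals only or RLE size factors, filterByExpr, every gene with at least 1 count, another set of libraries, DESeq2 1.42.0, a block for the replicate number, and 1 library fewer.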

Additional observations from a re-analysis of the deposited data

How the results depend on the processing

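The number of factors called in a comparison changed by at most 1 over 42 counts under alternatives and 42 with a library left out, in which 4 calls of Otx2 in SCLCs were lost (values in the report) and 2 of Pou3f1 gained. Of 252 values of single factors under alternatives, 251 kept their direction and side of the limits. The exception was Pou3f1 in tod-PGCLCs against SCLCs, called at a log2 fold change of 1.10 with library totals only. That scaling moved the median of all genes to 0.107, 0.100 and 0.146 in tod-PGCLCs against tcESCs, tc;Sf1ESCs and SCLCs. With a library left out, 244 of 252 values kept both. Pou3f1 was called at 1.16 without SCLC replicate 1 and 1.01 without tod-PGCLC replicate 1. Without tc;Sf1ESC replicate 2, values within the error changed sign, Otx2 in tc;Sf1ESCs against tcESCs (−0.039 to 0.335 with any library left out) and Zic2 in tod-PGCLCs against tc;Sf1ESCs (−0.023 to 0.078). Genes called between the ESC lines (1922) were 1119 to 2304 with a library left out, lower (1119 to 1240) where it was an ESC library, which leaves 1 library in that group. With the replicate number as a block, 1918, 7023, 6958, 4893, 5473 and 6313 genes were called, beside 1922, 7033, 6955, 4906, 5470 and 6346 without it, and no call of a factor changed. Deviations of same-numbered libraries correlated at −0.026 to 0.062. Taken over all genes, these values cannot show whether such libraries share more than a number. Low counts limit Foxd3 (10 and 18) and Otx2 (41 and 34) in SCLCs, and duplicates limit all tests. Set against counting error, the chi-square per degree of freedom between duplicates was 4.04 in tcESCs, 1.44 in tc;Sf1ESCs, 30.7 in SCLCs and 9.86 in tod-PGCLCs. The tc;Sf1ESC duplicates were thus the closest to counting error, and their SD may hold little biological spread.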
